A study of Mus musculus with 11 samples.

Results

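Receptors for interleukins and colony-stimulating factors were followed across 5 sorted mouse populations that span the formation of hematopoietic stem cells (HSCs). The set holds 48 of the 37820 gene rows in the RNA-seq table. A row was taken when its Ensembl gene ID maps to a symbol that starts with Il, a number and r, leaving out Il1rn, or to Csf2ra, Csf2rb, Csf2rb2, Csf3r, Il6st, Osmr or Lifr. The rule itself uses no expression value, but it was set with earlier results of these data known. Levels are in FPKM, fragments scaled to transcript length and to the mapped total of a library, so that a level is per length and levels of different genes can be set side by side.

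The 11 libraries comprise 2 each of endothelium (Endo), hemogenic endothelium (HE), fetal liver HSCs (FL HSCs) and bone marrow HSCs (BM HSCs), and 3 of pre-HSCs. By the study's methods, Endo and HE were both CD31+ CD45- CD41- cells of the dorsal aorta, umbilical and vitelline arteries at embryonic day (E) 10.5, taken from pooled embryos that carry a GFP reporter in the Runx1 gene. Endo were GFP- Kit- and HE were GFP+ with low or no Kit. Pre-HSCs were CD31+ CD144+ ESAM+ Kit+ cells with GFP from a Ly6a transgene. The labels place them at E10.5 and the methods at E11.5. FL HSCs were Lin- Sca1+ Kit+ CD150+ CD48- cells of E14.5 livers. BM HSCs came from mice of 6 to 8 weeks and were sorted as Lin- Sca1+ Kit+ CD150+, with CD48- CD135- as further gates in the methods and CD34- in the study's list of purified cells. No receptor of the set was itself a gate. The labels give strain B6129SF1 for every sample, whereas the methods name B6C3F1 mothers for the embryos, so reporter, strain, age and tissue differ together between populations and cannot be told apart.

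Interleukins and colony-stimulating factors signal by joining receptor chains at the cell surface. Most families pair a chain that binds 1 ligand with a chain shared by several, such as the common gamma chain (Il2rg), the common beta chain (Csf2rb) or gp130 (Il6st). These hematopoietin receptors have no enzyme of their own and work through Jak kinases and Stat factors, whereas receptors of the IL-1 and IL-17 families use adaptor proteins such as Myd88 and Traf3ip2. In most such pairs a response needs both chains, but there are exceptions. RNA levels of the chains therefore do not show whether a cell responds. Colony-stimulating factor receptors are best known for the growth of granulocytes and macrophages, gp130 cytokines also act on endothelium, and adult HSCs respond to several interleukins under inflammation.

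Endothelial markers (8 genes) summed to 1632 to 2405 FPKM in the Endo, HE and pre-HSC libraries, and to 137 to 167 FPKM in the FL and BM HSC libraries, while 6 pan-blood markers summed to 31.8 to 45.7 FPKM for Endo and HE, 243 to 498 FPKM for pre-HSCs and 925 to 1186 FPKM in FL and BM HSCs. Some of these markers were gates of the sort, namely Pecam1 (CD31), Cdh5 (CD144) and Esam of the endothelial list and Ptprc (CD45) of the pan-blood list. Part of the contrast in both sums was therefore set by the sort. Itga2b (CD41) of the megakaryocyte list was a gate as well. Markers of other cells were present. Macrophage markers (9 genes found, none at 0 in pre-HSCs) summed to 666, 223 and 1380 FPKM in pre-HSC replicates 1, 2 and 3 and to 344 and 48.8 FPKM in FL HSC replicates 1 and 2, against 5.07 to 11.96 FPKM in the Endo, HE and BM libraries. Granulocyte markers reached 506 to 614 FPKM for FL HSCs and 102 to 107 FPKM for BM HSCs. Mast cell and basophil markers summed to at most 6.96 FPKM, B cell markers to at most 23.6 FPKM, T and NK cell markers to at most 53.7 FPKM and hepatocyte markers to at most 30.6 FPKM. Erythroid markers reached 4440 to 6190 FPKM for Endo and HE, mural markers 999 to 1018 FPKM for HE, and megakaryocyte markers 928 to 938 FPKM for BM HSCs. In such bulk libraries, fewer cells of a type and less RNA per cell cannot be told apart. Read depth is unknown, and a value listed at 0 may be a failed estimate.

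The sequence in front of the start site, the 250 bases upstream, is shown for 4 receptors. Lifr and Il6st were called lower in FL HSCs than in pre-HSCs, and Csf3r and Il21r higher in pre-HSCs than in HE. All 4 were chosen after their values were seen. The bases run 5′ to 3′ on the gene's strand, the plus strand for all 4, and capitals mark CpG, the dinucleotide at which mammalian DNA is methylated. Sequences are from RefSeq on GRCm38.p6, whereas gene positions below are on NCBIM37 (mm9), the build of the expression table. The windows are chr15:7129322-7129571 for Lifr, chr13:112463820-112464069 for Il6st, chr4:126024409-126024658 for Csf3r and chr7:125603179-125603428 for Il21r.
Lifr: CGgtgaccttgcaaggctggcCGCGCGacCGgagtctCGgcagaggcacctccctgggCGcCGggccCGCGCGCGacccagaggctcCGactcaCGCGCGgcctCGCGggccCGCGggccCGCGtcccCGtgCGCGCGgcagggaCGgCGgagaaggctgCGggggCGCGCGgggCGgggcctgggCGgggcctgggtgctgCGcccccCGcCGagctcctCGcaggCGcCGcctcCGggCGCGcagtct
Il6st: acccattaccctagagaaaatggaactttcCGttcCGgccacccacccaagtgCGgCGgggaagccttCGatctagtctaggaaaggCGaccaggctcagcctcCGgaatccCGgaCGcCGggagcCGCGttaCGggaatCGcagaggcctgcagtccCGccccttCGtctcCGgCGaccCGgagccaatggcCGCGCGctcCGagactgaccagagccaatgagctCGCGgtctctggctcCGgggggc
Csf3r: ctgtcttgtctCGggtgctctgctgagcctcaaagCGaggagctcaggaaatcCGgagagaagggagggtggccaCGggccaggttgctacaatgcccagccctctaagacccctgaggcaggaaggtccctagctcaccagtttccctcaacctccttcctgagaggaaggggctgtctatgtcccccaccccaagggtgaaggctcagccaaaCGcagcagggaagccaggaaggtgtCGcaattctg
Il21r: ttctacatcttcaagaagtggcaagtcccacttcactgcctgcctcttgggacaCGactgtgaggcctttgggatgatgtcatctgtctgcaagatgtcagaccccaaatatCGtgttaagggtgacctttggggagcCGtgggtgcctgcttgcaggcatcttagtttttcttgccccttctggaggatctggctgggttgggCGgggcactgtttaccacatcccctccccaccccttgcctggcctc
Lifr carried 43 CpGs and Il6st 26, against 6 in Csf3r and 4 in Il21r. The median over 27025 promoters of the same length was 6.

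A promoter was matched for 39 of the 48 receptors, and those of Csf2rb, Il10ra, Il10rb, Il12rb1, Il17ra, Il22ra2, Il27ra, Il28ra and Il2rb were not. Among the receptors called higher in pre-HSCs than in HE, 10 had a promoter, with a median of 4 CpGs. Il6ra (18) and Csf2ra (17) had the most and Il1rl2 (1) the fewest. The 6 receptors called lower in FL HSCs than in pre-HSCs had a median of 15.5 CpGs, and the printed Lifr and Il6st had the most. Il1r1 had 3 and Il11ra1 4, so that the counts of both groups overlapped. A set of 3 short motifs, none of which contains another, was searched on both strands. GAGGAA, the core of many sites for the myeloid factor PU.1, was found in 14 of the 39 windows and 6 of the 10, Csf3r among them, and in 23.1% of all promoters. TGTGGT, a RUNX core, was found in 4 of the 39 and 3 of the 10, Il21r among them, and in 14.2% of all promoters. A site type bound by GATA factors, AGATAA, was found in 7 of the 39, 1 of the 10 and 10.2% of all promoters. A match is a description of the letters in these windows.

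Of the 48 receptors, 30 reached 1 FPKM in 2 or more libraries and entered a test over all 14708 such genes. The other 18 were not tested. By limma's moderated F test, 24 of the 30 (80%) differed among the 5 populations at a Benjamini-Hochberg adjusted p under 0.01, a threshold passed by 57.1% of all genes tested. A receptor was then called between neighboring populations when it also had an adjusted p under 0.05 in that contrast and at least a 2-fold change on the log2(FPKM + 1) scale, which understates the change of low genes. By this rule 23 of the 30 receptors were called in at least 1 transition, against 35% of all genes tested, 11 of them once, 11 in 2 transitions and Csf2rb in 3. Il10rb, Il17rc, Il1rap, Il1rl1, Il20rb, Il3ra and Il4ra were tested and called in none.

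No receptor was called between HE and Endo by limma, where 0.0544% of all genes (8) were called higher and 0.0748% (11) lower. The study's count test reported many more genes for this step, so a receptor not called here may still differ. Il17rc and Il17re differed 2-fold there at an unadjusted p under 0.05, and no other receptor did (2 of 30). Between pre-HSCs and HE, 14 of the 30 receptors were called higher and 1 lower, against 6.98% and 4.34% of all genes. The median log2 fold change of the 30 was 1.06, against 0.09 over all genes. Between FL HSCs and pre-HSCs, 7 were called higher and 6 lower (5 and 7 after scaling to equal totals), against 11.1% and 13.9% of all genes, with a median of 0.28 against 0.11. Between BM HSCs and FL HSCs, 6 were called higher and 2 lower, against 5.99% and 4.07% of all genes, with a median of 0.05 against 0. The share of receptors called higher (46.7%) therefore stood farthest from the background in the transition to pre-HSCs. That count of 15 calls dropped to 8 without HE replicate 1, when the single HE library left is taken to vary like the others, and was 9 with pre-HSC replicate 2 alone. The 8 calls between BM and FL HSCs became 4 without FL HSC replicate 1 and 5 without either BM HSC library.

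**Figure D1:**
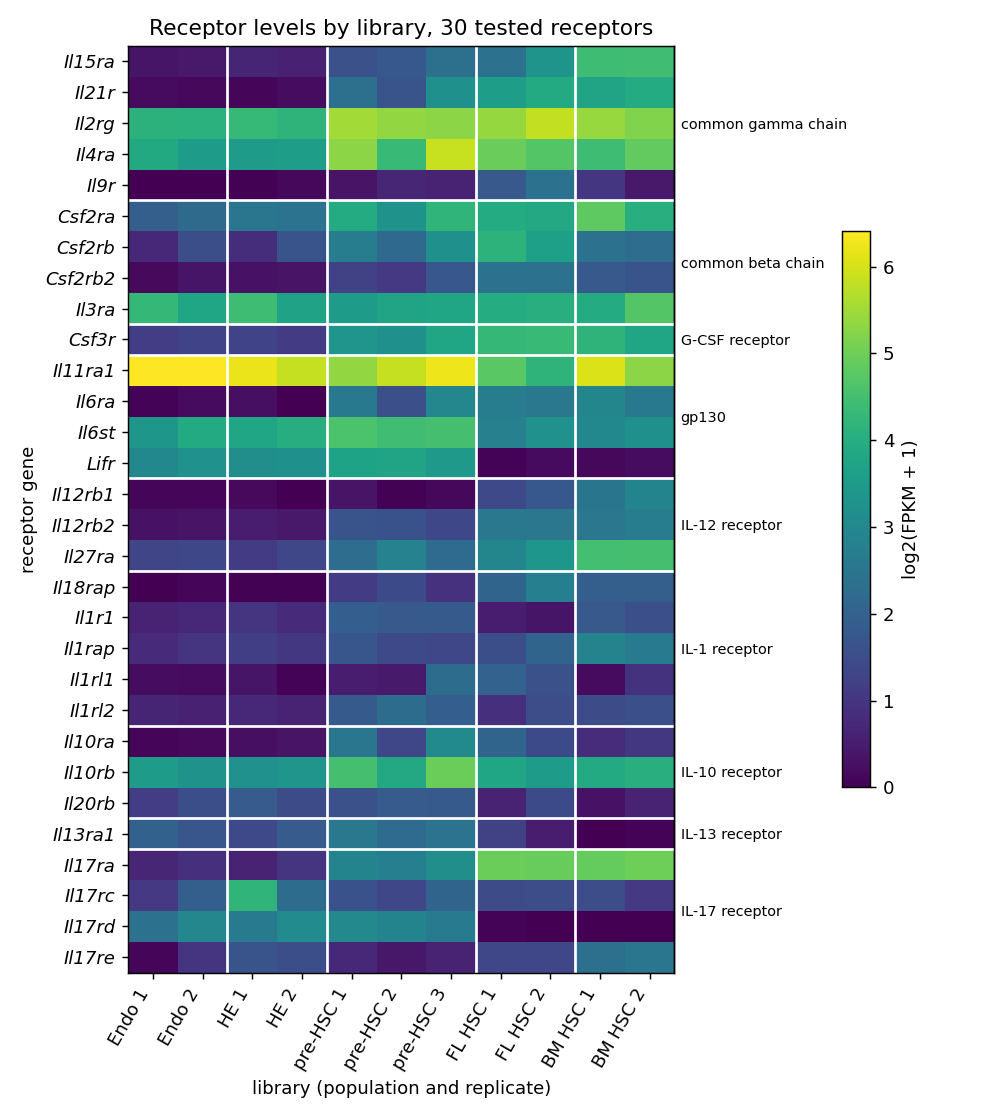
Level of each of the 30 tested receptors (rows, grouped by family) in each of the 11 libraries (columns), as log2(FPKM + 1) on a color scale. Il17rd and Lifr are bright in Endo, HE and pre-HSC libraries and dark in FL and BM HSC libraries, Il17ra and Il21r are dark in Endo and HE, and Il12rb1 is dark in all but the FL and BM HSC libraries.

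**Figure D2:**
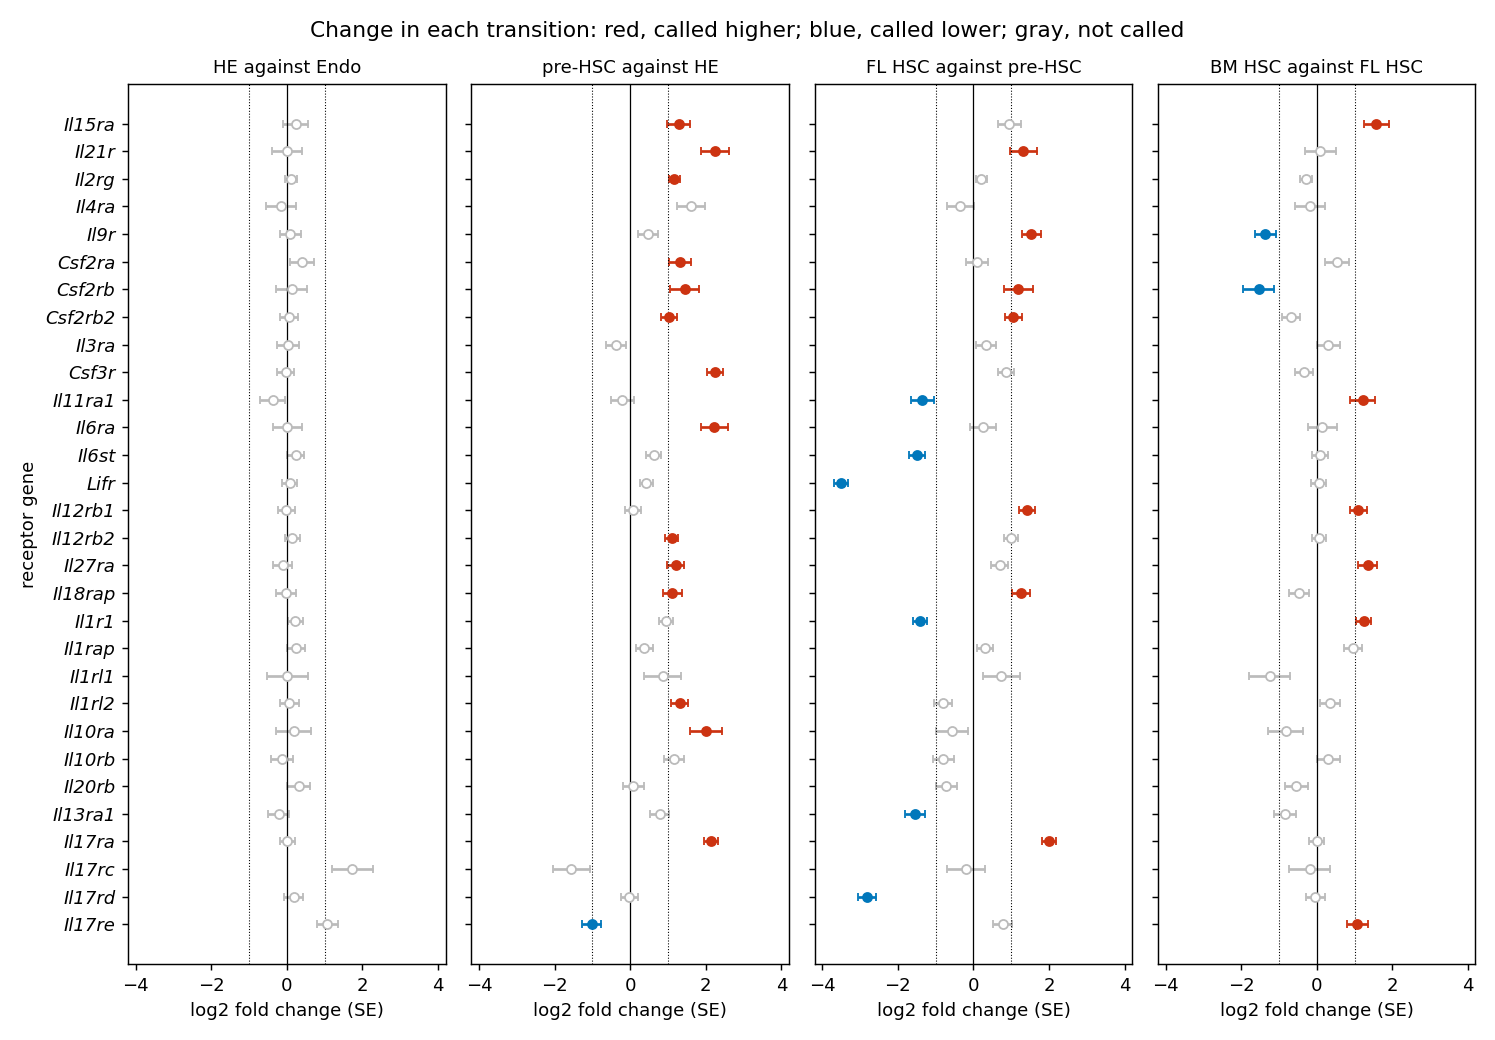
Log2 fold change (SE) of each tested receptor in the 4 transitions, the later population over the earlier one, with dotted lines at a 2-fold change. Filled points are called, and the panels hold 0, 15, 13 and 8 of them.

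The common gamma chain was present throughout, and its partners differed in when they appeared. Il2rg (chrX:98459717-98463594), the chain shared by the receptors for IL-2, IL-4, IL-7, IL-9, IL-15 and IL-21, was at 16.4 and 16.2 FPKM for Endo, 18.6 and 16.9 for HE, 44.8, 40.1 and 38.2 for pre-HSCs, 41.0 and 55.0 for FL HSCs and 41.6 and 35.8 for BM HSCs. All pre-HSC libraries lay above all HE libraries, and Il2rg rose there by 1.17 on the log2 scale (SE 0.15, adjusted p = 0.000822) and was called in no later transition. Of its exonic bases, 728 (30.5%) lie also in the gene model Gm20489 on the same strand, so part of the reads may belong to either.

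Il21r (chr7:132746943-132777084), the IL-21-specific chain, was listed at 0.09 to 0.163 FPKM in the 4 Endo and HE libraries, 4.13, 2.19 and 8.35 for pre-HSCs, 10.8 and 14.2 for FL HSCs and 12.4 and 14.3 for BM HSCs. It rose in pre-HSCs over HE (log2 fold change 2.25, SE 0.37, adjusted p = 0.00266) and again in FL HSCs over pre-HSCs (1.32, SE 0.37, adjusted p = 0.0139). In BM over FL HSCs its log2 fold change was 0.10 (SE 0.40). Without pre-HSC replicate 2 the second rise was 0.95 (adjusted p = 0.0275), under 2-fold, and without FL HSC replicate 2 it was 1.14 (adjusted p = 0.0846).

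Il15ra, which binds IL-15 and presents it to neighboring cells, was at 0.276 and 0.348 FPKM for Endo, 0.576 and 0.50 for HE, 2.02, 2.38 and 4.19 for pre-HSCs, 4.22 and 9.0 for FL HSCs, and 20.3 and 20.6 for BM HSCs. Both BM HSC libraries were above every other library. The rise in BM over FL HSCs was 1.57 (SE 0.33, adjusted p = 0.00921), and that in pre-HSCs over HE 1.29 (SE 0.30, adjusted p = 0.0133). Without FL HSC replicate 1 the rise to BM HSCs missed the threshold (1.10, adjusted p = 0.067), as did the one to pre-HSCs without HE replicate 1 (1.32, adjusted p = 0.0822), without HE replicate 2 (1.25, adjusted p = 0.0588) and with pre-HSC replicate 2 alone (1.14, adjusted p = 0.111).

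Il9r, the IL-9-specific chain, stood out in FL HSCs. It was listed at 0 in both Endo libraries, at 0.0219 and 0.101 FPKM for HE, 0.26, 0.622 and 0.559 for pre-HSCs, 2.47 and 4.24 for FL HSCs and 1.03 and 0.346 for BM HSCs. Both FL HSC libraries were above all others. Il9r rose in FL HSCs over pre-HSCs by 1.53 (SE 0.25, adjusted p = 0.000787) and fell in BM HSCs against FL HSCs by 1.37 (SE 0.28, adjusted p = 0.0077), a call lost without BM HSC replicate 2 (-1.07, adjusted p = 0.0549).

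Il4ra, which binds IL-4 and, with Il13ra1, IL-13, was the only other well-expressed member of the family. Its FPKM was 14.0 and 10.6 for Endo, 10.7 and 10.98 for HE, 38.5, 19.2 and 57.9 for pre-HSCs, 29.9 and 25.0 for FL HSCs and 20.5 and 28.2 for BM HSCs. The pre-HSC libraries were all above HE, at a log2 fold change of 1.61 (SE 0.36, adjusted p = 0.0114), but its F test had an adjusted p of 0.0104, so it was not called. Il2ra and Il2rb, the alpha and beta chains of the IL-2 receptor, reached at most 0.021 and 0.0865 FPKM, and Il7r, the IL-7 chain of early lymphocytes, at most 0.334 FPKM. None of the 3 was tested.

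In the common beta chain family both beta chains and the GM-CSF chain were called, and the chain for IL-3 was not. Csf2rb (chr15:78156420-78184277), shared by the receptors for GM-CSF, IL-3 and IL-5, was at 0.64 and 1.90 FPKM for Endo, 0.78 and 2.19 for HE, 5.44, 3.55 and 8.21 for pre-HSCs, 16.7 and 11.3 for FL HSCs and 4.29 and 3.90 for BM HSCs. It was the receptor called most often. Against HE, it rose in pre-HSCs by 1.44 (SE 0.37, adjusted p = 0.0198), rose again in FL HSCs by 1.19 (SE 0.37, adjusted p = 0.0238) and fell in BM HSCs against FL HSCs by 1.54 (SE 0.41, adjusted p = 0.0249). Both FL HSC libraries lay above every other library.

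None of the 3 Csf2rb calls held in all refits. The rise to pre-HSCs became 1.02 without HE replicate 1 (adjusted p = 0.196), 1.44 without pre-HSC replicate 1 (adjusted p = 0.0508), 1.18 without pre-HSC replicate 3 (adjusted p = 0.0522) and 0.93 with pre-HSC replicate 2 alone (adjusted p = 0.241). The rise to FL HSCs became 1.19 without pre-HSC replicate 1 (adjusted p = 0.0538), 0.94 without pre-HSC replicate 2 (adjusted p = 0.0709) and 0.93 without FL HSC replicate 1 (adjusted p = 0.153). The fall became -1.28 without FL HSC replicate 1 (adjusted p = 0.155), -1.59 without BM HSC replicate 1 (adjusted p = 0.0874) and -1.48 without BM HSC replicate 2 (adjusted p = 0.0921).

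Csf2rb2 (chr15:78112947-78136052) lies 20.4 kb from Csf2rb and encodes a second mouse beta chain used for IL-3 alone. Its FPKM was 0.117 and 0.285 for Endo, 0.249 and 0.255 for HE, 1.39, 1.09 and 2.32 for pre-HSCs, 4.37 and 4.24 for FL HSCs and 2.46 and 2.14 for BM HSCs, the same order of populations as Csf2rb apart from BM HSCs. It rose in pre-HSCs over HE (1.03, SE 0.22, adjusted p = 0.00923) and in FL HSCs over pre-HSCs (1.06, SE 0.22, adjusted p = 0.00317). The first rise was lost without HE replicate 1 (1.02, adjusted p = 0.0699), without pre-HSC replicate 3 (0.84, adjusted p = 0.0205) and with pre-HSC replicate 2 alone (0.74, adjusted p = 0.124), and the second without pre-HSC replicate 2 (0.91, adjusted p = 0.011). Both genes share 490 words of 75 bases, 10.4% of those of Csf2rb and 10.8% of those of Csf2rb2, so that reads there map to more than 1 place and, where only unique reads are kept, are missing from the levels of both.

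Csf2ra, the GM-CSF-specific chain, had 2.83 and 3.68 FPKM for Endo, 4.74 and 4.45 for HE, 14.4, 8.75 and 17.2 for pre-HSCs, 14.3 and 13.6 for FL HSCs and 27.4 and 15.5 for BM HSCs. Against HE, it rose in pre-HSCs by 1.32 (SE 0.29, adjusted p = 0.00979), and was 0.80 there with pre-HSC replicate 2 alone (adjusted p = 0.177) and 1.36 without HE replicate 1 (adjusted p = 0.0678). Il3ra, the IL-3-specific chain also known as CD123, was in contrast at 18.2 and 12.7 FPKM for Endo, 20.2 and 12 for HE, 10.6, 12.3 and 12.6 for pre-HSCs, 14.8 and 15.4 for FL HSCs and 14.3 and 24.9 for BM HSCs. The pre-HSC libraries overlapped those of HE and lay below every Endo, FL HSC and BM HSC library. The F test gave an adjusted p of 0.304. Il5ra, the IL-5 chain of eosinophils and some B cells, did not exceed 0.118 FPKM.

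Csf3r (chr4:125701794-125722219), the G-CSF receptor, needs no second chain. Its FPKM was 1.24 and 1.45 for Endo, 1.43 and 1.16 for HE, 9.18, 8.26 and 12.7 for pre-HSCs, 18.4 and 19.3 for FL HSCs and 17.1 and 12.7 for BM HSCs. It rose in pre-HSCs over HE by 2.25 (SE 0.21, adjusted p = 0.000159), a call made in every alternative run, with pre-HSC replicate 2 alone included. In FL HSCs over pre-HSCs it was higher in both libraries at 0.87 (SE 0.21, adjusted p = 0.00668), short of 2-fold. Its upstream window, printed above, holds 6 CpGs and 1 GAGGAA.

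In the gp130 family, Il6ra was called higher in pre-HSCs than in HE, and Il6st, Lifr and Il11ra1 were called lower in FL HSCs than in pre-HSCs. Il6st (chr13:113265216-113297068), or gp130, shared by IL-6, IL-11, LIF and oncostatin M receptors, was at 9.42 and 14.2 FPKM for Endo, 12.8 and 14.9 for HE, 23.0, 20.7 and 21.8 for pre-HSCs, 5.97 and 8.46 for FL HSCs and 6.98 and 8.34 for BM HSCs. Pre-HSCs were above all other populations. The fall in FL HSCs against pre-HSCs was -1.49 (SE 0.20, adjusted p = 0.000216). With pre-HSC replicate 2 alone it was -1.42 (adjusted p = 0.0107), but the F test then missed its threshold (adjusted p = 0.0158).

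Lifr (chr15:7079559-7147489), which joins gp130 in the receptors for LIF and related cytokines, showed the largest called fall on the log2(FPKM + 1) scale. Its FPKM was 6.94 and 8.51 for Endo, 8.04 and 8.27 for HE and 12.1, 12.3 and 9.82 for pre-HSCs. The FL HSC libraries were at 0.0513 and 0.136 FPKM and the BM HSC libraries at 0.0989 and 0.16 FPKM, so that no FL or BM HSC library came near the others. Lifr fell by 3.5 in FL HSCs against pre-HSCs (SE 0.18, adjusted p = 3.68e-07) in every alternative run. Il6st and Lifr thus both fell in the transition in which endothelial markers were lower in FL HSCs as well, and the part of those cells in the change was not tested. Osmr, the oncostatin M chain, followed at lower levels and was not tested, at 0.309 to 0.613 FPKM in the 7 libraries of Endo, HE and pre-HSCs, 0 and 0.0524 for FL HSCs and 0 in both BM HSC libraries.

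Il6ra, the IL-6-specific chain, was not called in the step in which its partner gp130 fell (0.26, SE 0.35, adjusted p = 0.569, in FL HSCs over pre-HSCs). It was at 0.0444 and 0.148 FPKM for Endo, 0.203 and 0.0143 for HE, 5.00, 1.97 and 6.76 for pre-HSCs, 5.48 and 4.91 for FL HSCs and 6.74 and 5.07 for BM HSCs. The rise in pre-HSCs over HE was 2.23 (SE 0.35, adjusted p = 0.00223) and was called in every alternative. Hence both IL-6 chains had more than 1 FPKM in all libraries of pre-HSCs, FL HSCs and BM HSCs, whereas Endo and HE had gp130 with Il6ra listed at 0.203 FPKM at most. Whether any of these populations responds to IL-6 was not tested.

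Il11ra1, the IL-11 chain, had the highest level of the set in every library but pre-HSC replicate 1 and both FL HSC libraries. Its FPKM was 83.5 and 83.9 for Endo, 74.0 and 56.1 for HE, 40.1, 56.2 and 75.3 for pre-HSCs, 26.2 and 17 for FL HSCs and 66.6 and 38.1 for BM HSCs. FL HSCs were lowest, with a fall against pre-HSCs of -1.35 (SE 0.30, adjusted p = 0.00457) and a rise in BM over FL HSCs of 1.22 (SE 0.33, adjusted p = 0.0274). Both calls depended on single libraries. The F test missed its threshold without Endo replicate 1 (adjusted p = 0.0142), Endo replicate 2 (adjusted p = 0.0137) or FL HSC replicate 2 (adjusted p = 0.0368). The log2 fold changes without FL HSC replicate 2 were -1.06 for the fall and 0.92 for the rise, which was 0.82 without BM HSC replicate 1 (adjusted p = 0.179). Il11ra1 shares 742 words of 75 bases (38.3% of its own) with its near copy Il11ra2, which was listed at 0 in 9 libraries and reached 0.141 FPKM at most, so that reads of these words would be missing from both levels. Il31ra, the IL-31 chain, was listed at 0 in all Endo, HE and pre-HSC libraries and at 0.0845 to 0.265 FPKM in FL and BM HSCs.

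The 3 tested members of the IL-12 receptor family had their highest mean in BM HSCs. Il12rb1 (chr8:73332348-73345323), the chain common to the IL-12 and IL-23 receptors, was at 0.0895 and 0.0641 FPKM for Endo, 0.126 and 0.00888 for HE, 0.268, 0.0193 and 0.0921 for pre-HSCs, 1.67 and 2.40 for FL HSCs and 4.6 and 6.44 for BM HSCs. It rose in FL HSCs over pre-HSCs by 1.43 (SE 0.21, adjusted p = 0.000394) in every alternative, and in BM over FL HSCs by 1.10 (SE 0.23, adjusted p = 0.009). The second rise was 0.93 without FL HSC replicate 1 (adjusted p = 0.073) and 0.89 without BM HSC replicate 2 (adjusted p = 0.0625).

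Il12rb2, the chain that completes the IL-12 receptor, appeared earlier. Its FPKM was 0.233 and 0.265 for Endo, 0.412 and 0.348 for HE, 2.17, 2.08 and 1.63 for pre-HSCs, 4.97 and 4.77 for FL HSCs and 4.80 and 5.46 for BM HSCs. Against HE, it rose in pre-HSCs by 1.10 (SE 0.18, adjusted p = 0.00242) and was 0.99 (SE 0.18, adjusted p = 0.00121) in FL HSCs over pre-HSCs, just short of 2-fold. With Il12rb1 near 0 before the fetal liver, both IL-12 chains were above 1 FPKM in FL and BM HSC libraries alone. Il23r, the other partner of Il12rb1, was listed at 0 in all 11 libraries.

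Il27ra, which pairs with gp130 as the IL-27 receptor, was at 1.52 and 1.61 FPKM for Endo, 1.21 and 1.58 for HE, 3.92, 6.19 and 3.71 for pre-HSCs, 6.65 and 9.38 for FL HSCs and 21.4 and 21.8 for BM HSCs. Each of the last 3 populations lay above the one before it with no overlap. It rose in pre-HSCs over HE by 1.21 (SE 0.23, adjusted p = 0.00511) and in BM over FL HSCs by 1.34 (SE 0.25, adjusted p = 0.00508), and the call in BM HSCs was made in every alternative. The first rise was 1.09 without HE replicate 1 (adjusted p = 0.0569).

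The IL-17 family held a receptor that rose in 2 steps and 1 that was nearly absent after pre-HSCs. Il17ra (chr6:120413215-120433745), the chain common to receptors for the IL-17 cytokines, was at 0.622 and 0.823 FPKM for Endo, 0.554 and 0.937 for HE, 6.46, 5.80 and 7.97 for pre-HSCs, 30.3 and 29.4 for FL HSCs and 28.8 and 31.0 for BM HSCs. Libraries of a population were close to each other and the steps were large against that spread. It rose by 2.15 in pre-HSCs over HE (SE 0.18, adjusted p = 0.000104) and by 2.01 in FL HSCs over pre-HSCs (SE 0.18, adjusted p = 1.51e-05), both in every alternative.

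Il17rd (chr14:27852187-27920472), also called Sef and known as an inhibitor of fibroblast growth factor signaling, was at 4.35 and 6.75 FPKM for Endo, 5.28 and 7.51 for HE and 7.12, 6.44 and 5.23 for pre-HSCs. It was at 0.0523 and 0 FPKM for FL HSCs and listed at 0 in both BM HSC libraries. The fall in FL HSCs against pre-HSCs was -2.82 (SE 0.23, adjusted p = 7.67e-06) and was called in every alternative.

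Il17re, the IL-17C chain, was the only receptor called lower in pre-HSCs than in HE. Its FPKM was 0.0822 and 0.938 for Endo, 2.18 and 1.92 for HE, 0.661, 0.329 and 0.544 for pre-HSCs, 1.57 and 1.59 for FL HSCs and 4.13 and 4.74 for BM HSCs. The fall was -1.02 (SE 0.25, adjusted p = 0.0162) and the rise in BM over FL HSCs 1.07 (SE 0.28, adjusted p = 0.0215). The fall was lost without HE replicate 1 (-0.96, adjusted p = 0.116), HE replicate 2 (-1.08, adjusted p = 0.0515) or pre-HSC replicate 2 (-0.93, adjusted p = 0.0489), and with pre-HSC replicate 2 alone (-1.20, adjusted p = 0.0871). The rise was lost without FL HSC replicate 1 (1.07, adjusted p = 0.0965), FL HSC replicate 2 (1.08, adjusted p = 0.0541), BM HSC replicate 1 (1.15, adjusted p = 0.071) or BM HSC replicate 2 (0.99, adjusted p = 0.0941).

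Il17rc, the partner of Il17ra for IL-17A and IL-17F, lies 0.676 kb from Il17re. It was at 1.10 and 2.85 FPKM for Endo, 17.3 and 3.84 for HE, 2.07, 1.58 and 3.16 for pre-HSCs, 1.77 and 1.84 for FL HSCs and 1.87 and 1.10 for BM HSCs. HE replicate 1 stood apart from all others, and no contrast was called. Il17rb, the IL-25 chain, did not exceed 0.461 FPKM.

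**Figure D3:**
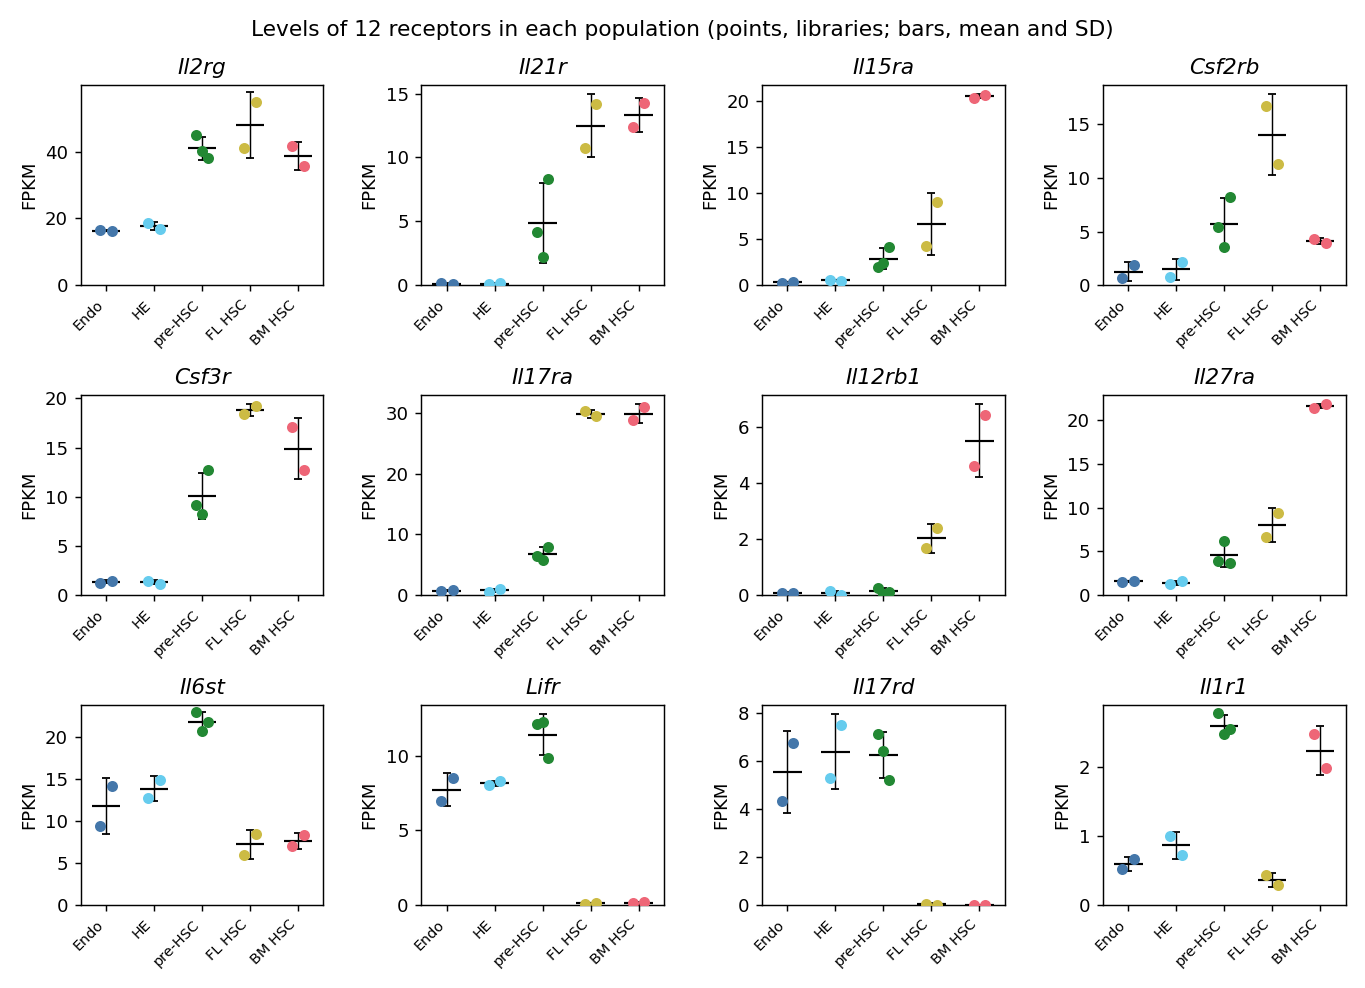
FPKM of 12 receptors in the 5 populations, from Endo to BM HSCs. Points are libraries and bars the mean and SD of 2 libraries (3 in pre-HSCs). Il17ra reaches 28.8 to 31.0 FPKM in FL and BM HSCs, Il15ra and Il27ra are highest in BM HSCs, and Lifr and Il17rd drop to 0.16 FPKM or less in FL and BM HSCs.

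Of the IL-1 family, 6 genes lie together on chromosome 1 from 40141613 to 40608550, in the order Il1r2, Il1r1, Il1rl2, Il1rl1, Il18r1 and Il18rap, and they did not move as one. Il1r1, the signaling receptor for IL-1, was at 0.521 and 0.659 FPKM for Endo, 1.0 and 0.723 for HE, 2.77, 2.47 and 2.54 for pre-HSCs, 0.43 and 0.286 for FL HSCs and 2.48 and 1.98 for BM HSCs. FL HSCs were below all other libraries. The fall in FL HSCs against pre-HSCs was -1.41 (SE 0.18, adjusted p = 0.000163), called in every alternative, and the rise in BM over FL HSCs 1.25 (SE 0.20, adjusted p = 0.00245).

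Il1rl2, the receptor for the IL-36 cytokines, was at 0.573 and 0.505 FPKM for Endo, 0.668 and 0.556 for HE, 2.50, 3.82 and 2.77 for pre-HSCs, 0.814 and 1.84 for FL HSCs and 1.83 and 1.97 for BM HSCs. It was highest in pre-HSCs and rose there over HE by 1.31 (SE 0.24, adjusted p = 0.00404), in every alternative. Il18rap, the second chain of the IL-18 receptor, was at 0.0148 and 0.0729 FPKM for Endo, 0.0247 and 0.0288 for HE, 1.17, 1.70 and 0.895 for pre-HSCs, 3.18 and 5.75 for FL HSCs and 2.84 and 2.86 for BM HSCs. Against HE, it rose in pre-HSCs (1.12, SE 0.24, adjusted p = 0.00927) and in FL HSCs over pre-HSCs (1.25, SE 0.24, adjusted p = 0.00196). The first rise was lost without HE replicate 1 (1.12, adjusted p = 0.0707) and pre-HSC replicate 2 (0.98), and the second without FL HSC replicate 2 (0.91) and with pre-HSC replicate 2 alone (0.98, adjusted p = 0.052).

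Il18r1, the chain that binds IL-18 first, was not tested and was above 1 FPKM in 1 library, with 1.69 and 0.606 FPKM for BM HSCs, 0.0506 and 0.115 for FL HSCs and at most 0.00867 in the 7 earlier libraries. Il1rap, the partner of Il1r1, Il1rl1 and Il1rl2, was at 0.721 and 0.967 FPKM for Endo, 1.30 and 1.06 for HE, 2.30, 1.65 and 1.58 for pre-HSCs, 1.91 and 3.16 for FL HSCs and 6.33 and 5.19 for BM HSCs. It passed the F test (adjusted p = 0.000592), and its 0.95 (SE 0.24, adjusted p = 0.0207) in BM over FL HSCs was short of 2-fold. Il1rl1, the IL-33 receptor ST2, ranged from 0.0463 to 3.81 FPKM and did not pass the F test. Its highest libraries were pre-HSC replicate 3 (3.81 FPKM) and both FL HSC libraries (3.06 and 2.03). Mast cell and basophil markers summed to 6.43 to 6.96 FPKM in these, against at most 2.19 FPKM elsewhere. Cpa3 alone gave 5.73 FPKM of the sum in pre-HSC replicate 3, and 2.83 and 3.44 FPKM in the FL HSC libraries. Of the 8 markers, 5 were at 0 in pre-HSC replicate 3 and 3 in each FL HSC library, Fcer1a and Tpsab1 among them. The part of such cells in the level of Il1rl1 was not tested. The decoy receptor Il1r2 reached 1.31 FPKM in FL HSC replicate 2, and the neuronal Il1rapl1 and Il1rapl2 at most 0.0457 and 0.736 FPKM.

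Among receptors for IL-10 and its relatives, Il10ra, the IL-10-specific chain, was at 0.0586 and 0.123 FPKM for Endo, 0.201 and 0.273 for HE, 4.72, 1.58 and 7.40 for pre-HSCs, 3.18 and 1.73 for FL HSCs and 0.766 and 1.06 for BM HSCs. It rose in pre-HSCs over HE by 2.01 (SE 0.42, adjusted p = 0.00798). The F test missed its threshold without Endo replicate 1 (adjusted p = 0.0145), Endo replicate 2 (adjusted p = 0.013), HE replicate 1 (adjusted p = 0.0116), HE replicate 2 (adjusted p = 0.0104) or pre-HSC replicate 1 (adjusted p = 0.0137), and with pre-HSC replicate 2 alone the rise was 1.06 (adjusted p = 0.0838). Il10ra is a receptor of macrophages, and its order within pre-HSCs and within FL HSCs was that of the macrophage marker sums, whose part in its level was not tested.

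Il10rb, the chain shared by receptors for IL-10, IL-22 and IL-28, was at 10.7 and 8.85 FPKM for Endo, 8.39 and 9.21 for HE, 22.1, 13.5 and 30.5 for pre-HSCs, 12.8 and 10.6 for FL HSCs and 14.0 and 15.3 for BM HSCs. It did not pass the F test (adjusted p = 0.0161). It shares 569 exonic bases (15.0%) with the interferon receptor gene Ifnar2 on the same strand. Il20rb, a chain for IL-20 and related ligands, ranged from 0.244 to 2.58 FPKM and was not called. Il20ra, Il22ra1, Il22ra2 and Il28ra were not tested, and Il22ra2 in BM HSC replicate 1 (1.25 FPKM) was the only value of theirs above 1.

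Il13ra1, which joins Il4ra to form a receptor for IL-4 and IL-13, was at 2.96 and 2.28 FPKM for Endo, 1.68 and 2.59 for HE, 4.94, 3.71 and 4.46 for pre-HSCs, 1.37 and 0.421 for FL HSCs and 0.00704 and 0.0477 for BM HSCs. The fall in FL HSCs against pre-HSCs was -1.54 (SE 0.26, adjusted p = 0.000817), called in every alternative, while Il4ra in the same libraries was between 19.2 and 57.9 FPKM. Il13ra2, a decoy for IL-13, was listed at 0 in every library but those of pre-HSCs, where it was at 0.349, 0.0715 and 0.637 FPKM.

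By population, the highest mean of the 30 tested receptors fell in BM HSCs for 11, pre-HSCs for 9, FL HSCs for 7, HE for 2 and Endo for 1. The mean level was at least 5 FPKM for 8 of the 48 for Endo, 9 for HE, 12 for pre-HSCs, 14 for FL HSCs and 16 for BM HSCs. Summed mean levels over the 48 were 182, 179, 293, 276 and 327 FPKM in the same order of populations. Of these sums, Il11ra1 alone gave 83.7, 65.0, 57.2, 21.6 and 52.4 FPKM. The same counts were not made over all genes, so they do not show a trait particular to these receptors.

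The 3 pre-HSC libraries differed from each other in many receptors. Macrophage markers summed 6.19 times higher in replicate 3 than in replicate 2. Over the same pair of libraries Il10ra was 4.69 times, Il21r 3.8 times, Il6ra 3.43 times, Il4ra 3.02 times, Csf2rb 2.31 times, Il10rb 2.25 times, Csf2rb2 2.12 times and Csf2ra 1.96 times higher, while Csf3r was at 1.53, Il17ra at 1.38, Il6st at 1.05, Il2rg at 0.952, Lifr at 0.8 and Il27ra at 0.6 times. Of the 30 receptors, 12 were lowest in replicate 2 and highest in replicate 3, the order of the macrophage sums, and so were 8 of the 14 called higher than in HE, against 22% of all genes tested and 47% of all genes called higher. Csf3r and Il17ra were among the 8. A fit that kept replicate 2 as the only pre-HSC library was added after seeing the data. It called 9 receptors higher than in HE and none lower: Csf3r, Il12rb2, Il17ra, Il18rap, Il1rl2, Il21r, Il27ra, Il2rg and Il6ra. Csf2ra, Csf2rb, Csf2rb2, Il10ra, Il15ra and Il17re were no longer called in that fit, which rests on 1 pre-HSC library with a macrophage sum of 223 FPKM, against at most 11.96 FPKM in HE. FL HSC replicate 1 had 7.04 times the macrophage sum of replicate 2, and 14 of the 30 receptors were higher in it. That count was not made over all genes, and the part of macrophages in it was not tested.

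**Figure D4:**
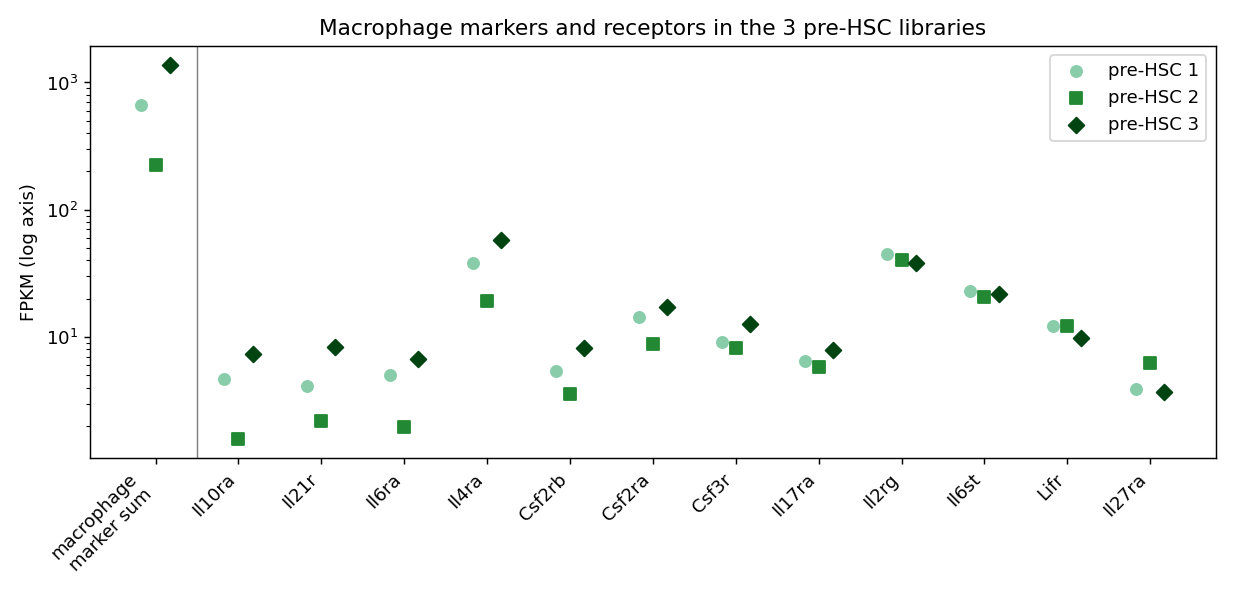
Summed FPKM of 9 macrophage markers and the FPKM of 12 receptors in the 3 pre-HSC libraries, on a log axis. The macrophage sum, Il10ra, Il21r, Il6ra, Il4ra, Csf2rb, Csf2ra, Csf3r and Il17ra run in the order replicate 2, 1, 3. Il2rg, Il6st and Lifr differ little between libraries, and Il27ra is highest in replicate 2.

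Other genes of cytokine signaling were taken from lists of ligands, further receptors, Jak and Stat genes, inhibitors and adaptors. None of their 72 tested genes was called by limma between HE and Endo, although 8 had an unadjusted p under 0.05 (6 of them higher in HE, 2 lower). Over all genes, 6.98% were called higher and 4.34% lower in pre-HSCs against HE, 11.1% and 13.9% in FL HSCs against pre-HSCs, and 5.99% and 4.07% in BM against FL HSCs, the shares beside which the counts of each list stand. Of 42 ligands listed, 16 were tested. In pre-HSCs against HE, 6 ligands were called higher and 1 lower, in FL HSCs against pre-HSCs 4 and 4, and in BM against FL HSCs 4 and 0 (1 lower at an unadjusted p under 0.05). Il1b, an inflammatory cytokine of macrophages, averaged 17.2 ± 16 FPKM in pre-HSCs (SD, n = 3) and was listed at 0 in all Endo and HE libraries. It rose over HE by 3.73 (SE 0.66) and fell in FL HSCs against pre-HSCs by 3.48 (SE 0.66). Ebi3, a subunit of IL-27 and IL-35, rose in pre-HSCs over HE by 2.71 (SE 0.34) and in FL HSCs over pre-HSCs by 2.70 (SE 0.34), with means of 54.1 ± 1.6 FPKM in FL HSCs and 8.23 ± 4.9 FPKM in pre-HSCs.

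Il12a, the p35 subunit of IL-12, averaged 13.5 ± 3.0 FPKM in BM HSCs, 5.49 ± 0.47 FPKM in FL HSCs and 0.737 ± 0.25 FPKM in pre-HSCs, and rose in both of the last transitions (1.15, SE 0.22, in BM over FL HSCs and 1.91, SE 0.20, in FL HSCs over pre-HSCs). The other IL-12 subunit, Il12b, was not tested and was listed at 0 in every library but FL HSC replicate 1 (0.0273 FPKM). Il16, a ligand of CD4, rose in pre-HSCs over HE by 1.68 (SE 0.14) and in FL HSCs over pre-HSCs by 1.92 (SE 0.14). Il18 rose in pre-HSCs over HE by 1.76 (SE 0.39). Osm, oncostatin M, rose in pre-HSCs over HE by 1.44 (SE 0.40), fell in FL HSCs by 1.12 (SE 0.40) and rose in BM HSCs by 1.63 (SE 0.44). All 6 ligands called higher in pre-HSCs than in HE ran within pre-HSCs in the order of the macrophage sums (replicates 2, 1 and 3). Il1b, Ebi3, Il16, Il18 and Osm were among them, though Il16 ranged only from 8.17 to 9.58 FPKM. So did 11 of the 19 genes called higher over all lists and 47% of those called higher in the whole table. The 11 include these 6 ligands and Csf1r, itself a member of the macrophage marker list. The part of macrophages in the rises was not tested.

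Of 15 tested receptors outside the set, 5 were called higher and 1 lower in pre-HSCs against HE, 4 higher and 6 lower in FL HSCs against pre-HSCs, and 1 higher and 2 lower in BM against FL HSCs. Csf1r, the receptor for M-CSF and a member of the macrophage marker list, rose in pre-HSCs over HE by 5.03 (SE 0.78), with 85.8, 26.3 and 164 FPKM in the 3 pre-HSC libraries, fell in FL HSCs against pre-HSCs by 2.38 (SE 0.78) and fell in BM against FL HSCs by 3.67 (SE 0.85). Epor, the erythropoietin receptor, rose in FL HSCs over pre-HSCs by 3.48 (SE 0.23) and fell in BM against FL HSCs by 1.48 (SE 0.25). Flt3, the antigen CD135 used as a gate for BM HSCs in the methods, rose in pre-HSCs over HE by 1.82 (SE 0.21) and in FL HSCs over pre-HSCs by 2.33 (SE 0.21). Cntfr and Lepr, chains for ciliary neurotrophic factor and leptin, fell by 2.06 (SE 0.28) and 1.94 (SE 0.22) in the same step, and Cntfr had fallen in pre-HSCs against HE by 1.66 (SE 0.28).

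All 11 Jak and Stat genes were tested. In pre-HSCs against HE, 4 were called higher, in FL HSCs against pre-HSCs 3, and none was called lower in any transition by limma, the lower genes at an unadjusted p under 0.05 numbering 1 in HE against Endo and 0 in the later steps. Stat5a averaged 49.7 ± 2.0 FPKM in FL HSCs and 8.18 ± 1.1 FPKM in pre-HSCs, a rise of 2.47 (SE 0.19) after one of 1.01 (SE 0.19) in pre-HSCs over HE, and Stat5b rose in the FL HSC step by 1.74 (SE 0.14). Both transduce signals of the beta chain and gamma chain receptors. Stat4, a factor downstream of the IL-12 receptor, averaged 26.4 ± 0.17 FPKM in BM HSCs, 14.5 ± 6.6 FPKM in FL HSCs, 3.41 ± 0.86 FPKM in pre-HSCs and 0.82 ± 0.046 FPKM in HE, and rose in pre-HSCs by 1.26 (SE 0.26) and in FL HSCs by 1.77 (SE 0.26). Stat3, a factor downstream of gp130, rose in pre-HSCs over HE by 1.27 (SE 0.15).

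Of 18 inhibitors of receptor signaling, 2 were called higher in pre-HSCs against HE, 2 higher and 1 lower in FL HSCs against pre-HSCs and 1 lower in BM against FL HSCs. Socs3, an inhibitor that binds gp130 and the G-CSF receptor, averaged 1.48 ± 0.49 FPKM in FL HSCs, 51.6 ± 6.7 FPKM in pre-HSCs and 5.59 ± 0.43 FPKM in HE. It rose in pre-HSCs by 2.99 (SE 0.36) and fell in FL HSCs against pre-HSCs by 4.41 (SE 0.36). Socs2 rose in FL HSCs over pre-HSCs by 2.52 (SE 0.33), and the phosphatase gene Ptpn6 rose in pre-HSCs over HE by 2.47 (SE 0.24) and in FL HSCs over pre-HSCs by 1.61 (SE 0.24). Sh2b3, an adaptor that restrains cytokine signaling, fell in BM against FL HSCs by 1.02 (SE 0.13).

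Of 12 adaptors of the IL-1 and IL-17 receptors, 2 were called higher in pre-HSCs against HE, 1 higher and 2 lower in FL HSCs against pre-HSCs and 1 higher in BM against FL HSCs. Traf3ip2, the Act1 adaptor of IL-17 receptors, fell in FL HSCs against pre-HSCs by 1.70 (SE 0.28), the step in which Il17ra rose. Irak3, an inhibitory kinase of the IL-1 pathway, rose in each of the last 3 transitions, by 1.63 (SE 0.27), 1.28 (SE 0.27) and 1.49 (SE 0.29). Myd88 rose in pre-HSCs over HE by 1.26 (SE 0.28), and Irak2 fell in FL HSCs against pre-HSCs by 1.17 (SE 0.22).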

How the data were processed

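Poly(A) RNA of 11 libraries from 5 sorted mouse populations was sequenced in pairs with a kit that does not mark strand. The authors aligned reads with TopHat to mm9, kept unique reads, and used Ensembl genes. The submitters' notes also list Cufflinks, featureCounts, Subread and edgeR, without versions. The authors deposited FPKM per gene and library without a statement of which tool computed them (not given in the sources used here). Of 37820 gene IDs, 37038 (97.9%) got a symbol from the NCBIM37 annotation, and 782 stayed without. Whole reads could not be recovered from low values, at most 9 genes of a library sharing one, so depth is unknown and no counting intervals are given.

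A linear model of log2(FPKM + 1) was run in limma 3.58.1 under R 4.3.3 (lmFit, eBayes with trend) on all 11 libraries and the 14708 genes that reached 1 FPKM in 2 or more of them, in place of the count test used by the authors. The fit was also run on data simulated with its own fitted spread, independent between libraries, in which no gene of low level was changed. That run cannot speak for receptors of low level or for unequal cell content of the libraries. P-values were adjusted by Benjamini-Hochberg over all genes, and a call needed 0.01 in the F test, 0.05 in the contrast and a 2-fold change. The study calls the libraries biological replicates of sorted cells but does not say how pooled embryos or mice were divided among them, so p-values measure the spread between these libraries. Members, gene lists and tests were chosen with earlier results of these data known. Values in each library are given for receptors called in at least 1 transition or with a mean of at least 5 FPKM in a population, as well as Il1rap, Il18r1 and Osmr, chosen after their values were seen. Of each pathway list, up to 6 called genes with the largest log2 fold change are named, and Il12b is named beside Il12a. Some genes of these lists are counted but not reported here by name. Alternatives were other pseudocounts, no filter, quantile or total scaling, a stricter p, no F test, a replicate block, fits of only 2 populations, leaving out each library, and pre-HSC replicate 2 alone. Plots used matplotlib 3.10.9, and tables pandas 2.3.3 with numpy 2.4.6 (Python 3.11.15).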

Additional observations from a re-analysis of the deposited data

How the results depend on the processing

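None of the 36 called changes turned direction in any alternative, 17 were called in every fit that left out a library, and 14 in every alternative. Leaving out 1 library gave 8 to 15 receptors called in pre-HSCs against HE (15 with all), 12 to 16 in FL HSCs against pre-HSCs (13) and 4 to 9 in BM against FL HSCs (8), while 22 to 26 passed the F test (24). The BM HSC count was 5 under quantile normalization, 5 at an adjusted p under 0.01 and 4 when only those 2 populations were fitted, and pre-HSC replicate 2 alone gave 9 in pre-HSCs against HE. The causes were not tested. Quantile normalization ended the calls of Csf2rb2, Il12rb2 and Il18rap in pre-HSCs and of Il12rb1, Il17re and Il1r1 in BM HSCs, which fell under 2-fold (0.73 to 0.98). Scaling to equal totals raised the median log2 fold change of all genes in pre-HSCs against HE to 0.22 and gave 17 receptors higher and 0 lower there. It shifted the share of higher calls over all genes to 73.4%, against 61.6% as deposited and 49.1% under quantile normalization, and in FL HSCs against pre-HSCs to 32.6% against 44.5%, with 5 receptors higher and 7 lower. In BM against FL HSCs that share was 68.3% against 59.5%. Under all 3 scalings more receptors were called higher than lower in pre-HSCs against HE, and in FL HSCs against pre-HSCs under 2 of them.

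Deviations of same-numbered libraries from their group means gave 14 distinct correlations, from -0.16 to 0.16. All 3 among Endo, HE and FL HSCs were above 0.1 (0.12 to 0.16), but only 5 of the 14 were, so the libraries were not taken as paired. A replicate block gave 14, 16 and 9 receptors called in the last 3 transitions, and the calls of Csf2rb and Csf2rb2 in pre-HSCs against HE were lost.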

Other observations

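Several receptors of the set lie next to each other on NCBIM37 and had different levels in the same libraries. Il4ra and Il21r on chromosome 7 are 24.0 kb apart. Il4ra was above 10 FPKM in every library, whereas Il21r was at or under 0.163 FPKM in Endo and HE. Il2ra and Il15ra on chromosome 2 are 12.1 kb apart, and Il2ra was above 0 in FL HSC replicate 1 alone (0.021 FPKM), while Il15ra was above 20 FPKM in BM HSCs. Il12rb2 and Il23r on chromosome 6 are 46.7 kb apart, with Il23r listed at 0 in all 11 libraries. Il6st and Il31ra on chromosome 13 are 16.0 kb apart, and Il31ra had a value above 0 only in FL and BM HSCs, where Il6st was lowest. These are values with no test.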
